A study of Mus musculus with 6 samples.

Results

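Alveolar macrophages, the resident macrophages of the airspaces, were selected on raw counts in 6 single-cell libraries of aged mouse lung, as barcodes with at least 1 UMI (unique molecular identifier, a count of 1 captured transcript) of Ptprc, at least 3 of Chil3, at least 2 of Krt79, Plet1 and Atp6v0d2 together, at most 1 of Csf3r and 0 of Cdh5. Barcodes with fewer than 500 genes, fewer than 1000 UMIs or a mitochondrial share above 15% were left out first. Of 88616 barcodes that passed these limits on quality, 91 were alveolar macrophages by this rule, and 32822 others held Ptprc, the gene of the leukocyte antigen CD45. Ptprc, Chil3, Krt79, Plet1, Atp6v0d2, Csf3r and Cdh5 chose the cells, so their levels are given as a description.

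The study asked how the aged lung responds when cells with high p16 expression are killed. All 6 mice were male C57BL/6 animals of 21 months and carried p16-CreERT2, a tamoxifen-activated Cre recombinase under the control of p16. The 3 mice of the p16-DTR group also carried R26-LSL-DTR, a diphtheria toxin receptor behind a stop cassette that Cre removes, and the 3 control mice did not. Both groups received tamoxifen (TAM) for 5 days, an interval of 2 weeks, diphtheria toxin (DT) for 5 days and 2 weeks of recovery, so every control had Cre, tamoxifen and toxin too. Toxin sensitivity was thus limited to cells in which p16 drove the Cre, and no untreated or young mice were among the 6 samples used here. For each library, 20000 CD45-negative and 9000 CD45-positive cells sorted from 1 mouse were mixed as input, and 13482 to 17332 barcodes were deposited. The sort set the proportion of leukocytes, and airspace cells came only from tissue digested with liberase. No lavage is described.

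Alveolar macrophages sit on the surface of the alveoli, where they take up inhaled particles, dying cells and spent surfactant. They arise around birth from fetal monocytes under GM-CSF and TGF-beta, which sustain PPARgamma, the regulator of their lipid handling. They renew themselves by local division, and in an injured or aged lung they can be joined by cells that descend from blood monocytes. Interstitial macrophages, the tissue macrophages below the epithelium, differ from them by complement C1q and high MHC class II.

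The p16-DTR libraries held 13, 17 and 23 alveolar macrophages and the control libraries 17, 14 and 7. Their summed counts were 526619, 580702 and 580846 UMIs in p16-DTR and 664700, 423451 and 219135 in control, so control 3 rested on the fewest cells and the fewest UMIs. A cell held 1304 to 111642 UMIs, with a median of 33449 over all 91 cells, and a median of 5961 genes. The median per library was 19152 UMIs in p16-DTR 3 and 28609 to 41710 in the other 5, and the median of other Ptprc-positive cells was 16537 to 17746.5. The mitochondrial share had a median of 1.57% and a maximum of 9.35%, and the 4 cells above 5% were all from p16-DTR libraries. Of 93313 distinct barcodes in the series, 1055 (1.13%) occurred in more than 1 library; 1 alveolar macrophage had such a barcode, and the other cell with that barcode was not an alveolar macrophage.

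Many barcodes that met the limits on Chil3 and on Krt79, Plet1 and Atp6v0d2 were removed by the limits on Ptprc, Csf3r and Cdh5. Barcodes with enough Chil3 and enough Krt79, Plet1 and Atp6v0d2 numbered 25, 40 and 51 in p16-DTR and 32, 23 and 23 in control before the limits on Ptprc, Csf3r and Cdh5. Csf3r, a receptor of neutrophils and monocytes, was above its limit in 4 to 13 of these per library, Cdh5, an endothelial cadherin, was present in 3 to 8, and Ptprc was absent from 2 to 13. Ptprc was the only limit missed by 1 to 12 barcodes per library, and Csf3r by 2 to 12. Just inside the Chil3 limit, 7 alveolar macrophages held 3 to 5 Chil3 UMIs, and just outside it 9 cells held 1 or 2. Just inside the second limit, 7 cells held 2 or 3 UMIs of Krt79, Plet1 and Atp6v0d2, and just outside it 7 cells held 1. A further 34 to 97 cells per library held at least 3 Chil3 UMIs and none of the 3 genes, which left them out.

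The label was checked against markers that the rule did not use. Ear2, an eosinophil-associated ribonuclease of mouse alveolar macrophages, was found in 82 of 91 cells, Pparg in 80 and Itgax, the integrin CD11c, in 79. Siglecf, the lectin used to sort these cells, was found in 53, Car4 in 51, Fabp4 in 44 and Marco, a scavenger receptor, in 33. At least 3 of these 7 markers were present in 83 cells, 2 cells held only 1 and no cell held 0. C1qa, C1qb and C1qc were all absent from 89 cells, and Ly6c2, a classical monocyte gene, was present in 5. A single UMI is a weak criterion for Pparg, Ear2, Car4 and Itgax, which had 93.1, 69.1, 49.5 and 34.8 CPM in the other Ptprc-positive cells. Marco and Siglecf had 0.878 and 1.53 CPM there, against 123 and 71.0 in alveolar macrophages. In summed counts all 7 markers were thus higher in the chosen cells, but the count of markers does not settle the identity of each single cell.

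Levels are given in CPM, the UMIs of a gene scaled to the summed UMIs of the same cells of a library, as a mean and SD over the 6 libraries. Chil3 (chromosome 3, 106147554 to 106167564 in GRCm38), a secreted chitinase-like lectin, reached 6588 ± 943 CPM. It had 1.65 in 467 cells gated as interstitial macrophages by C1q and at most 2 Chil3 UMIs, a limit that kept this level low. In 1626 cells gated as classical monocytes by Ly6c2 and Ccr2, without C1q, it had 169. Krt79 (chromosome 15, 101929332 to 101940324), a type II keratin, had 195 ± 93.6 CPM and was listed at 0 in both gates. Plet1 (chromosome 9, 50494525 to 50505482), a surface protein, had 773 CPM, and Atp6v0d2 (chromosome 4, 19876841 to 19922605), a subunit of the proton pump that acidifies lysosomes, had 918. Among markers outside the rule, Marco was at 123 CPM in alveolar macrophages and 0.346 in the interstitial gate, and Ear1 at 464 and 0.0909. Fabp1, a fatty acid binding protein, was at 154 CPM against 0.296, and Car4, a carbonic anhydrase, at 289 against 1.91.

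**Figure D1:**
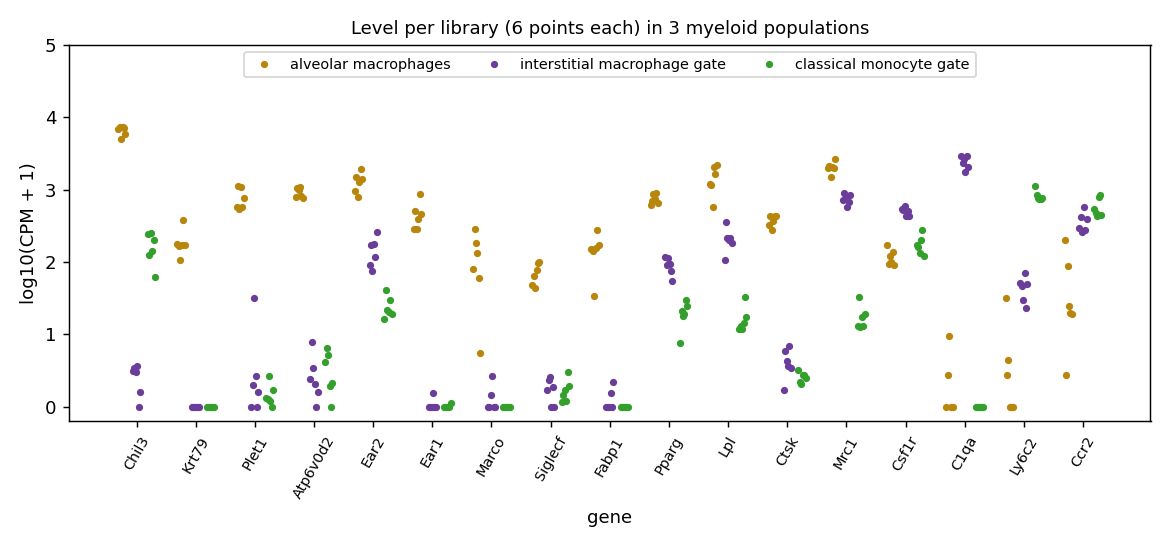
Level of 17 genes in alveolar macrophages, in the interstitial macrophage gate and in the classical monocyte gate, as log10(CPM + 1) on the vertical axis, with 1 point for each of the 6 libraries. Krt79, Ear1, Marco and Fabp1 are near 0 in both other populations, while C1qa is high in the interstitial gate and near 0 in alveolar macrophages.

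Several genes of lipid handling and lysosomal digestion were higher than in the interstitial gate, as described here for examples. Pparg had 740 ± 114 CPM against 89.7 ± 24.0, Lpl, the lipase that frees fatty acids from triglyceride, 1454 against 211, and the cholesterol exporter Abcg1 936 against 78.5. Olr1, a receptor for oxidised lipoprotein, had 658 against 5.41. Csf2rb, the signalling chain of the GM-CSF receptor, had 351 against 111, and Bhlhe41, a transcription factor of alveolar macrophage renewal, 63.9 against 3.45. Csf2ra, the other chain of that receptor, had 221 against 201, and Fabp5, a fatty acid binding protein, 352 against 66.4. Csf1r, the receptor for the growth factor of most tissue macrophages, went the other way with 118 against 506. The cathepsins Ctsd and Ctsk had 1938 and 378 CPM against 143 and 3.34. In each of these comparisons except those of Csf2ra, Fabp5 and Csf1r, the lowest library of alveolar macrophages was above the highest of the interstitial gate, and for Csf1r the reverse held; clusters or gates set against each other give no test.

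C1qa, Apoe, Cd74 and Il1b were lower than in the interstitial gate, as described here for examples. C1qa, which with Chil3 also defined the interstitial gate, had 1.72 CPM in alveolar macrophages and 2427 in that gate. Apoe, a lipid carrier, had 164 against 2297, and Cd74, the invariant chain of MHC class II, 3164 against 17868. Cd74 was not low against other cells, with 2187 CPM in the classical monocyte gate and 3551 in the other Ptprc-positive cells. The cytokine Il18 had 370 CPM against 40.6 and the chemokine Ccl6 3432 against 474. Il1b had 162 against 1122. Apoe varied widely between libraries of alveolar macrophages, from 18.9 CPM in control 2 to 405 in p16-DTR 3, where 1 cell held 182 of 235 Apoe UMIs. In control 3 the cell with fibroblast transcripts held 54 of 57.

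The 91 cells were not uniform. Krt79 and Plet1 were both present in 58 cells and both absent from 8, and 6 of those 8 were from p16-DTR 3. The median depth of the 8 was 6024 UMIs, but cells of p16-DTR 3 among them held 34179, 42990 and 32715. These deep cells had 0, 2 and 1 UMIs of Lpl and 0, 0 and 1 of Siglecf. They also had 4, 17 and 5 of Pparg and 9, 11 and 17 of Itgax. Neither gene is absent from the interstitial gate described above. Itgax had 182 CPM there against 268 in alveolar macrophages, with overlap, and Pparg 89.7 against 740. The cell of 32715 UMIs also held 5 UMIs of C1qa, 3 of C1qb and 182 of Apoe, and 0 of Ear2, so its identity is not settled. Among the 72 cells with at least 10000 UMIs, 47 had no Marco UMI, while 22 of all 91 cells held at least 5 and the highest held 82. Cd74 also spread widely: 51 of the 72 cells held at least 50 UMIs, 26 of them from control libraries, whereas 9 held at most 2. Of these 9 cells, 6 were from p16-DTR 3, and p16-DTR 1, p16-DTR 2 and control 1 gave 1 each. All 4 cells of at least 10000 UMIs without Pparg and all 3 without Ear2 were also from p16-DTR 3, the library of lowest median depth. Of the 4 without Pparg, 3 carried B cell or T and NK transcripts and are among the 10 cells described next, and none of the 3 without Ear2 is. What sets that library apart was not tested.

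Transcripts of other lineages were found in some of the cells. In 10 cells more than 30 UMIs came from defining genes of 1 other lineage (alveolar type 2, endothelial, fibroblast, T and NK, or B cells, without surfactant protein and immunoglobulin genes): 3, 1 and 4 in p16-DTR and 0, 1 and 1 in control. Counted on the full marker lists, 1 cell of control 2 held 7590 UMIs of the alveolar type 2 list and 5611 of the 5632 Sftpc UMIs of its library, beside 3 Chil3 UMIs. A cell of p16-DTR 2 held 512 UMIs of the fibroblast list and another of control 3 held 789. Cells of p16-DTR 3 held 377 and 152 UMIs of the B cell list and 97 of the T and NK list. In p16-DTR 1, 1 cell held 162 UMIs of the B cell list with 77 of the T and NK list, another held 415 of the monocyte list and another 68 of the T and NK list. The median depth of the 10 cells was 53770.5 UMIs, and no doublet caller was run. Values without these 10 cells are given below beside genes for which they hold much of the count.

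Lists of defining genes for 10 other cell types that the sort could hold were summed in each library. The B cell list summed to 49.9 to 968 CPM in p16-DTR and 61.4 to 132 in control, and the T and NK list to 5.17 to 288 and 1.5 to 4.56. The fibroblast list summed to 131 to 1040 CPM in p16-DTR and 168 to 3783 in control, and the type 2 list to 172 to 239 and 155 to 18075. The monocyte list summed to 301 to 1462 in p16-DTR and 420 to 718 in control, the neutrophil list to 212 to 437 and 158 to 254, and the interstitial macrophage list to 46.5 to 98.7 and 4.56 to 87.3. The dendritic cell list summed to 281 to 336 and 278 to 590, the endothelial list to 146 to 193 and 168 to 201, and the erythroid and platelet list to 1.72 to 19.0 and 13.7 to 28.6. Of the erythroid and platelet genes 7 were at 0 in all 6 libraries, of the interstitial macrophage genes 2, and of the endothelial and dendritic lists 1 each. The part of these transcripts in the group results was not tested beyond the values without the 10 cells.

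The share of alveolar macrophages among Ptprc-positive barcodes was compared first, to ask whether the population was depleted. It was 0.238%, 0.282% and 0.341% in p16-DTR and 0.337%, 0.338% and 0.127% in control. The groups overlapped, since control 3 was the lowest of all libraries and the 2 other controls lay near the highest. The means were 0.287% ± 0.0516 and 0.267% ± 0.121 (SD, n = 3 each), a difference of 0.0196 percentage points (exact two-sided permutation p = 0.8, adjusted p = 1 over 3 shares tested; 0.1 is the smallest p that 3 against 3 mice allow). With 7 to 23 cells per library, the 95% Wilson interval of 1 library spanned for example 0.0617% to 0.263% in control 3, which covers counting error only. The difference changed sign without the 10 cells (−0.00992), without p16-DTR 3 (−0.00747) and without control 3 (−0.0505).

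**Figure D2:**
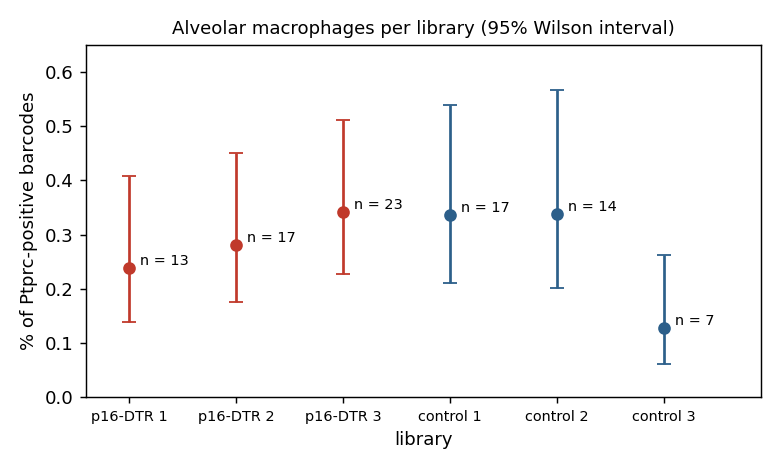
Alveolar macrophages as a percentage of Ptprc-positive barcodes in each library, with the number of cells beside each point and bars for the 95% Wilson interval. Intervals overlap across groups, and control 3, with 7 cells, is lowest at 0.127%.

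Cdkn2a, the gene that encodes p16 (chromosome 4, 89274471 to 89294653), was counted in every library as the check of the targeted cells. Its UMIs numbered 10, 3 and 4 in the p16-DTR libraries and 2, 0 and 0 in the controls, found in 4, 3 and 3 cells and in 1, 0 and 0 cells. Each p16-DTR library was above each control in CPM (19.0, 5.17 and 6.89 against 3.01, 0 and 0), a direction opposite to a loss of Cdkn2a transcripts in the libraries labelled p16-DTR. Pooled over libraries, 17 against 2 UMIs gave 10.1 and 1.53 CPM, a ratio of 6.58 with an exact interval from 1.56 to 58.7 that covers counting error only. The gene was too low to pass the filter of the main test. Without the filter edgeR gave a log2 fold change of 2.71 (adjusted p = 0.65) and DESeq2 2.91 (adjusted p = 1). A single cell of p16-DTR 1 with 79359 UMIs, which was also the cell with the most cell cycle UMIs, held 6 of the 17 UMIs.

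Depth matters for such a rare transcript, so cells were also thinned to 5000 UMIs each. Cdkn2a was then found in 0%, 0% and 9.52% of the p16-DTR cells and in 0% of each control's, from 2 of 48 and 0 of 32 cells, and the count of 0 allows a share of up to 9.38%. The group means were 3.17% ± 5.50 and 0% (SD over 3 mice a group; two-sided exact permutation test, p = 1, adjusted p = 1). Thinning left out 5 p16-DTR and 6 control cells, and without it the means were 20.5% and 1.96%. For comparison, in a neutrophil gate the thinned means were 1.19% and 0.0659% at median depths of 9464.5 to 13097 UMIs, and 5.69% and 0.327% without thinning. In the interstitial gate they were 4.36% and 0.606% with thinning and 13.3% and 3.15% without. Each thinned share is 1 random draw of UMIs. For the same 11 cells of p16-DTR 1 at 5000 UMIs, this draw gave 0 cells with Cdkn2a. A separate draw under stricter limits of the rule (at least 6 UMIs of Chil3 and 4 of Krt79, Plet1 and Atp6v0d2 together) gave 1. In alveolar macrophages at 10000 UMIs the means were 15.3% and 2.38% (exact permutation p = 0.7). By library these were 40%, 0% and 5.88% in p16-DTR against 7.14%, 0% and 0% in control, with overlap. The draw under stricter limits gave 30%, 6.67% and 13.3% at that depth, against 0% in each control, without overlap. A draw under looser limits (at least 1 UMI of Chil3 and of Krt79, Plet1 and Atp6v0d2 together) overlapped. It gave 7.69%, 0% and 15% against 0%, 0% and 14.3%. With 3 mice against 3 the smallest p is 0.1, so the permutation test could not pass the threshold whatever the difference. Of the 11 cells with a Cdkn2a UMI, 2 were among the 10 with transcripts of another lineage.

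The tdTomato entry of the feature table had 0 UMIs in the 91 cells, which allows a share of up to 3.30% of cells with a UMI. The 32822 other Ptprc-positive cells held 100 UMIs in p16-DTR and 0 in control, a mean of only 0.131 CPM over the 6 libraries. At so low a level, 0 UMIs in 91 cells cannot set alveolar macrophages apart from them. Hbegf, whose human form binds diphtheria toxin, had 24 UMIs in control 2, all in the cell with type 2 transcripts, and 0 in each of the other 5 libraries. Transcripts of the transgenic receptor itself were not analysed here. Cdkn1a, which encodes the cell cycle inhibitor p21, had 467, 369 and 363 CPM in p16-DTR and 358, 307 and 365 in control, overlapping groups with a log2 difference of 0.25 with an SE of 0.19 (edgeR adjusted p = 0.997). It was found in 72 of the 91 cells.

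Cell division was carried by a small, separate set of cells. The UMIs of the cell cycle list, without D-type cyclins, Hmgb2 and Stmn1, summed to at least 50 in 8 cells and no other cell reached 25. The 8 cells were 1, 1 and 1 of p16-DTR and 3, 2 and 0 of control, and the limit of 50 was chosen after the values were seen; at 100 UMIs 3 and 2 cells remained. They held 10393 to 111642 UMIs in all, with 17 to 145 of Mki67 and 2 to 123 of Top2a, and each also held Chil3, Ear2 and Pparg. The first p16-DTR cell had 145 UMIs of Mki67, the antigen Ki-67, and 123 of Top2a, a topoisomerase of dividing cells, with 534 of Chil3. After thinning, the share of cells with a UMI of Mki67 or Top2a was 9.09%, 12.5% and 4.76% in p16-DTR and 28.6%, 16.7% and 0% in control. The means were 8.78% ± 3.88 and 15.1% ± 14.4 (SD over 3 mice a group; two-sided exact permutation test, p = 0.6, adjusted p = 1), and 23.0% and 28.0% without thinning. The thinned means were 7.73% in p16-DTR and 12.8% in control in the interstitial gate, and 3.19% and 2.81% in the neutrophil gate. Without control 1 the difference changed sign, to 0.451 percentage points.

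**Figure D3:**
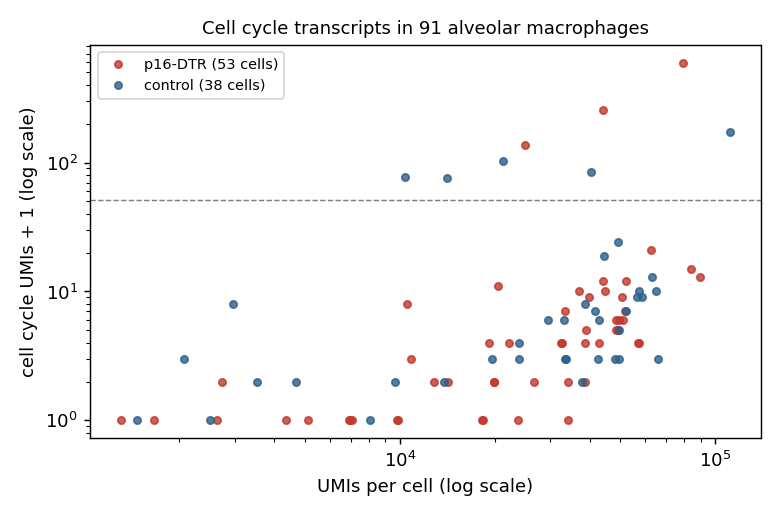
Sum of cell cycle UMIs plus 1 against UMIs per cell, both on log scales, for 53 alveolar macrophages of p16-DTR and 38 of control mice. A dashed line marks 50 UMIs; 8 cells lie above it and no other cell reaches 25.

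Expression was then compared between groups on the counts summed over the alveolar macrophages of each library. edgeR's quasi-likelihood test with Benjamini-Hochberg adjustment called 0 of 6940 genes (0%). The unadjusted p was under 0.05 for 323 genes, and the lowest adjusted p was 0.197. DESeq2, which tested 16072 genes, called 2 (0.0124%), Rgs1 and Thbs1. Every p16-DTR library was above every control in 326 tested genes (4.7%), and below in 368 (5.3%). The median log2 fold change over all tested genes was 0.01. With 3 mice against 3 and 7 to 23 cells per library, the p-values rest on the spread between library sums. That spread mixes differences between mice with the draw of few cells, which cannot be told apart here. Single cells held much of the count of several genes.

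Rgs1 and Thbs1, the genes of smallest p in the edgeR test, owed much of their counts to single cells. Rgs1 (chromosome 1, 144242296 to 144249242), a brake on G protein signalling of chemokine receptors, had 241, 215 and 262 CPM in p16-DTR and 81.2, 56.7 and 95.8 in control. The groups did not overlap, and the log2 difference was 1.67 with an SE of 0.24 (edgeR adjusted p = 0.197). Single cells with over 30 UMIs of another lineage held 64 of 127 UMIs in p16-DTR 1 and 86 of 125 in p16-DTR 2. Without the 10 such cells Rgs1 had 106, 74.4 and 252 CPM against 81.2, 44.8 and 108, so the groups overlapped, and the log2 fold change was 0.99 (edgeR adjusted p = 1). In the interstitial gate of the same libraries Rgs1 had 1167, 1008 and 1098 CPM against 526, 541 and 590, again without overlap.

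Thbs1 (chromosome 2, 118111876 to 118127133), the secreted glycoprotein thrombospondin 1, had 67, 64 and 115 UMIs in p16-DTR and 4, 14 and 0 in control. One cell per p16-DTR library carried nearly all of them, with 65, 63 and 107 UMIs, or 97.0%, 98.4% and 93.0% of the library's count. The log2 fold change was 3.39 with an SE of 0.59 (edgeR adjusted p = 0.537). The cells of p16-DTR 1 and p16-DTR 2 were among the 10 with transcripts of another lineage, and that of p16-DTR 3 was not, but it held 132 UMIs of the monocyte list, which the limit for those 10 cells does not use, with 13 of Ccr2. Without those 10 cells the level was 6.61, 1.91 and 240 CPM in p16-DTR and 6.02, 0 and 0 in control, so p16-DTR 3 alone stood apart. Thbs1 was at 527 CPM in the classical monocyte gate and 903 in the neutrophil gate.

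A further 10 genes are named by rule as those of smallest p whose groups did not overlap, and none was called (edgeR adjusted p from 0.761 to 0.984). Mfhas1, a leucine-rich repeat protein, had 85.5, 75.8 and 67.1 CPM in p16-DTR and 18.1, 30.7 and 27.4 in control, a log2 fold change of 1.65. It was found in 43 cells and did not overlap without the 10 cells (92.5, 76.4 and 82.0 against 18.1, 36.4 and 21.6 CPM). Lilr4b, an inhibitory receptor of myeloid cells, had 171, 131 and 201 CPM against 90.3, 68.5 and 54.8, and 1 cell of p16-DTR 1 held 58 of its 90 UMIs there. Without the 10 cells the groups overlapped for Lilr4b (76.0, 128 and 204 against 90.3, 78.3 and 64.7 CPM). Bach2, a transcriptional repressor best known from lymphocytes, had 110, 37.9 and 195 CPM against 13.5, 26.0 and 4.56, and the highest cell of each p16-DTR library was 1 of those 10; without them it had 62.8, 13.4 and 48.4 against 13.5, 14.0 and 5.40. Gm20186, a predicted gene, had 19, 11 and 14 UMIs against 2, 2 and 0, of which 16 of the 19 in p16-DTR 1 were in 1 of the 10 cells. Without those cells Gm20186 had 9.91, 19.1 and 25.2 CPM against 3.01, 5.59 and 0.

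On the lower side, Gadd45g, a growth arrest and DNA damage inducible gene, had 39.9, 36.2 and 24.1 CPM in p16-DTR and 90.3, 120 and 63.9 in control, a log2 fold change of −1.46. Bcl2a1d, a BCL2 family survival gene found in 73 cells, had 106, 146 and 122 CPM against 236, 198 and 242. Fmnl3, a formin that assembles actin, had 26.6, 22.4 and 44.8 against 67.7, 77.9 and 82.1. Vamp5, a vesicle fusion protein, had 5, 4 and 4 UMIs against 18, 11 and 11, and Prox1, a homeobox factor, 3, 3 and 3 against 20, 9 and 4. Areg, the EGF receptor ligand amphiregulin, had 0, 10 and 0 UMIs against 26, 65 and 14, and 52 of the 65 in control 2 were in the cell that carried type 2 transcripts. For these 6 genes (Gadd45g, Bcl2a1d, Fmnl3, Vamp5, Prox1 and Areg) the groups still did not overlap in CPM without the 10 cells.

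**Figure D4:**
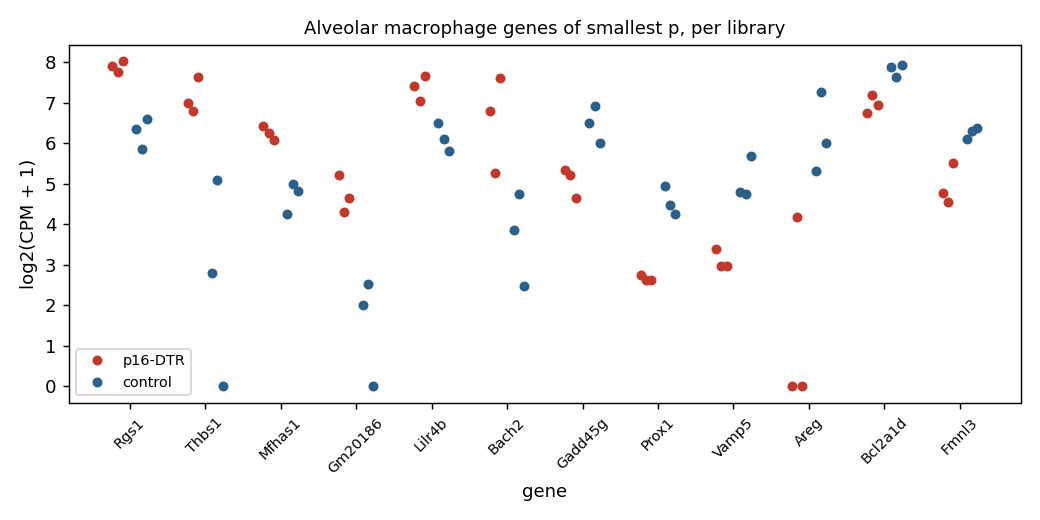
Level as log2(CPM + 1) in the alveolar macrophages of each library for the 12 genes of smallest p without overlap between groups, with p16-DTR libraries left and control libraries right for each gene. No gene was called by edgeR, and the points of Thbs1 in p16-DTR rest on 1 cell per library.

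Genes of alveolar macrophage identity mostly had negative log2 fold changes in p16-DTR, with none called. Without Chil3, Krt79, Plet1 and Atp6v0d2, which chose the cells, the list has 21 genes, of which 20 were tested. The log2 fold change was positive for 4 and negative for 16, with a median of −0.39 beside 0.01 for all tested genes. Siglecf, Fabp1, Itgax and Lpl lay below the controls in every p16-DTR library, 4 of 20 beside 5.3% of all tested genes. Without the 10 cells the median was −0.31, the same held for Siglecf, Itgax and Lpl, and Marco lay above. For Marco, p16-DTR 1 was then only narrowly above control 1, and its left-out cells held 0 Marco UMIs. The cells of p16-DTR 3 without Ear2 or Pparg, and those without Krt79 and Plet1, enter the sums over all 91 cells.

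Lpl (chromosome 8, 68880491 to 68907448) had 1179, 1159 and 573 CPM in p16-DTR and 2025, 1618 and 2168 in control. The means were 970 ± 344 and 1937 ± 285 (SD over 3 mice a group), a log2 difference of −0.98 with an SE of 0.26 (edgeR adjusted p = 0.984). Over alternatives the log2 fold change ran from −1.16 to −0.43, and without the 10 cells the libraries had 1570, 1281 and 673 CPM against 2025, 1908 and 2320. Siglecf (chromosome 7, 43351341 to 43359531) had 47.5, 63.7 and 43.0 CPM against 76.7, 94.5 and 100, a log2 difference of −0.77 with an SE of 0.26 (edgeR adjusted p = 0.993). Itgax (chromosome 7, 128129547 to 128150657) had 216, 250 and 238 CPM against 302, 272 and 329, and Fabp1 152, 141 and 32.7 against 155, 272 and 169.

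Chil3, Plet1, Krt79, Ear2 and Marco overlapped between groups. Chil3 had 6828, 7265 and 5039 CPM in p16-DTR and 7400, 7151 and 5841 in control. Plet1 had 566, 1112 and 532 against 1083, 571 and 771, and Krt79 had 177, 167 and 105 against 173, 378 and 169. Ear2 had 961, 1498 and 776 CPM against 1274, 1901 and 1410, a log2 difference of −0.49 with an SE of 0.25 (edgeR adjusted p = 0.993). Marco (chromosome 1, 120474538 to 120505024) had 77.9, 281 and 184 against 134, 59.0 and 4.56, a log2 difference of 1.29 with an SE of 0.60 (edgeR adjusted p = 0.993), and control 3 was the library that set its low end. Single cells held 82 Marco UMIs in p16-DTR 2 and 47 in p16-DTR 3. Csf3r and Cdh5, which the rule limits, had 4.56 to 10.3 CPM and 0 UMIs.

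In the list of transcription factors and signals of alveolar macrophage identity 24 of 27 genes (without Csf3r) were tested, 17 with a positive log2 fold change, and the median was 0.10. Pparg had 613, 692 and 863 CPM in p16-DTR and 740, 888 and 643 in control (log2 fold change −0.04). Spi1, the macrophage factor PU.1, had 308, 379 and 300 against 331, 409 and 411, and Cebpb 1483, 1509 and 1596 against 1182, 1743 and 1406. Bach2 was the 1 gene of the list above the controls in every p16-DTR library, and Bach1 was the 1 below them, each 1 of 24 beside 4.7% and 5.3% of all tested genes.

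In the lipid and surfactant handling list 38 of 42 genes were tested, 9 with a positive and 29 with a negative log2 fold change, and the median was −0.12. Its summed level was 8819, 8932 and 8803 CPM in p16-DTR and 10140, 10535 and 11568 in control. This sum includes Lpl, with 1179, 1159 and 573 CPM against 2025, 1618 and 2168, and without Lpl the summed levels of the groups overlap. Fabp1 and Lpl, which the identity list also holds, were the 2 of 38 genes below every control, a share like the 5.3% of all tested genes. Without the 10 cells Lpl alone was. With stricter limits of the rule 4 of 37 were (Fabp1, Lpl, Olr1 and Angptl4), beside 5.9% of all genes tested there. With looser limits, given below, 3 of 41 were (Lpl, Hadhb and Hmgcs1), beside 5.86%, and 1 (Msr1) lay above. Plin2, a coat protein of lipid droplets, had 1132, 892 and 1124 CPM against 1073, 1197 and 1483, and Abcg1 had 1005, 1042 and 577 against 894, 784 and 1314, so both overlapped.

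Receptors of uptake gave a median of −0.08 over 26 tested genes of 31, and 5 of the 26 lay below every control, beside 5.3% of all tested genes: Siglecf, Itgax, Fcgr3, Mertk and Axl. Mertk, a receptor for dying cells, had 665, 1052 and 962 CPM in p16-DTR and 1405, 1320 and 1387 in control, a log2 difference of −0.60 with an SE of 0.20 (edgeR adjusted p = 0.993). Axl, of the same receptor family, had 410, 379 and 339 against 435, 453 and 648, and the Fc receptor Fcgr3 had 308, 315 and 282 against 328, 328 and 351. Without the 10 cells Mertk, Siglecf and Itgax lay below every control, Marco lay above (narrowly in p16-DTR 1), and Axl and Fcgr3 overlapped. With looser limits of the rule (at least 1 UMI of Chil3 and of Krt79, Plet1 and Atp6v0d2 together) the median was 0.09, and 7 of 28 genes (Msr1, Clec4d, Cd14, Fcgr2b, Tyrobp, Itgam and Cd300a) lay above every control, beside 5.35% of all genes tested there, and 3 (Axl, Siglecf and Itgax) below.

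Lysosomal genes without Atp6v0d2 had a median of 0.06 over 31 tested genes of 32, with 19 positive and 12 negative. With looser limits it was 0.12, with 24 positive and 7 negative. Hexa and Glb1, the enzymes hexosaminidase A and beta-galactosidase, lay above every control, and Ctsc, cathepsin C, lay below. Glb1 had 41.8, 51.7 and 41.3 CPM against 25.6, 26.0 and 22.8. Lyz2, the lysozyme of macrophages, had 10611, 13418 and 11523 CPM against 10597, 14450 and 9674. Ctss, a cathepsin of antigen processing, had 2132, 2669 and 5365 against 2308, 2269 and 2747, and p16-DTR 3 was the high library.

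Antigen presentation genes had a median of −0.18 over 18 tested genes of 19, with 4 positive and 14 negative. H2-DMb1, a chaperone of MHC class II loading, had 173, 301 and 165 CPM in p16-DTR and 357, 364 and 374 in control, and Tap1, a peptide transporter of the class I pathway, 20.9, 24.1 and 20.7 against 27.1, 28.3 and 27.4. Cd74 had 2246, 3818 and 1778 against 3678, 3169 and 4294, and H2-Aa 784, 1293 and 647 against 1354, 975 and 1579, both with overlap. Without the 10 cells the median was −0.37, and 4 of 18 genes (H2-Eb1, H2-DMb1, Tap1 and Psmb9) lay below every control, beside 5.13% of the 6002 genes tested in that setting. With looser limits the median was −0.06, and 1 of 18 (Tap2) lay below, beside 5.86% of all genes tested there. The cells of at most 2 Cd74 UMIs described above were 8 of p16-DTR and 1 of control.

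Inflammatory and interferon genes showed no call either. The inflammatory list had a median of −0.17 over 18 tested genes of 30, and Tnfaip3, a feedback inhibitor of NF-kB, was the 1 gene of 18 above every control, beside 4.7% of all tested genes (167, 98.2 and 157 against 55.7, 54.3 and 95.8 CPM). For Tnfaip3, 1 cell of p16-DTR 1 held 62 UMIs, and without the 10 cells the groups overlapped (36.4, 78.3 and 126 against 55.7, 55.9 and 113). Cxcl2, a neutrophil chemokine, had 292, 258 and 231 CPM against 671, 161 and 611. Of 30 interferon genes 8 were tested, with a median of 0.41 that was 0.00 without the 10 cells, 0.20 with stricter limits (at least 6 UMIs of Chil3 and 4 of Krt79, Plet1 and Atp6v0d2 together) and 0.42 with looser limits. Ifi35 lay above every control, 1 of 8 beside 4.7% of all tested genes. With stricter limits 2 of 9 did (Irf1 and Ifi35), with looser limits 3 of 11 (Irf9, Ifi35 and Ifitm3), beside 4.81% and 5.35% of all genes tested there, and without the 10 cells 0 of 6. Ifitm3, the highest of them, had 385, 49.9 and 157 CPM against 46.6, 75.6 and 128, and 1 cell held 34.8% of its UMIs. Without the 10 cells Ifitm3 had 23.1, 17.2 and 189 against 46.6, 8.39 and 21.6.

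The senescence and p53 list had a median of 0.25 over 20 tested genes of 30, 15 of them positive. Without the 10 cells the median was 0.24, with 9 of 16 positive. Mdm2, a p53 target that degrades p53, had 89.2, 70.6 and 129 CPM in p16-DTR and 61.7, 54.3 and 68.5 in control (log2 fold change 0.69, standard error 0.29, edgeR adjusted p = 0.993). Mdm2 and Glb1 lay above every control, 2 of 20 beside 4.7% of all tested genes, and without the 10 cells Glb1 alone did. With stricter limits 3 of 18 did (Cdkn1a, Mdm2 and Glb1), and with looser limits 5 of 22 (also Rb1 and Plaur), beside 4.81% and 5.35% of all genes tested there. The cell cycle list had a median of 0.62 over 12 tested genes of 27, which was 1.05 without the 10 cells and −0.26 with looser limits of the rule. Mki67 had 279, 53.4 and 143 CPM against 101, 130 and 0, and 1 cell held 37.9% of its UMIs.

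Among matrix genes, Fn1, the matrix protein fibronectin, had 623, 344 and 1339 CPM in p16-DTR and 271, 241 and 77.6 in control, without overlap (log2 fold change 1.95, standard error 0.50, edgeR adjusted p = 0.984). Its highest cell held 47.3%, 65% and 39.7% of the UMIs of the p16-DTR libraries, and without the 10 cells the levels were 354, 380 and 1571 against 271, 283 and 80.9 CPM. Tgfbi, a TGF-beta induced matrix protein, had 401, 468 and 415 against 245, 257 and 397, and it overlapped without the 10 cells. The matrix list had a median of −0.04 over 15 tested genes of 28, which was 0.15 without the 10 cells, 0.01 with stricter and 0.13 with looser limits. The monocyte-derived list had a median of 0.35 over 10 tested genes of 24, which was 0.15 without the 10 cells and 0.90 with looser limits, and no gene of it was free of overlap. Ccr2, the chemokine receptor of classical monocytes, had 203, 1.72 and 86.1 CPM against 24.1, 18.9 and 18.3. Without the 10 cells Ccr2 had 19.8, 1.91 and 84.1 against 24.1, 22.4 and 16.2, and 6 of its 107 UMIs in p16-DTR 1 were left.

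For the remaining lists, medians were 0.14 for iron, heme and oxidative stress (19 tested of 25), 0.11 for glucocorticoid-induced genes (15 of 17), 0.03 for immediate early and dissociation stress genes (24 of 28) and −0.09 for oxidative phosphorylation (32 of 32). Of the iron, heme and oxidative stress genes 14 of 19 were positive, beside 3594 of all 6940 tested genes. Without the 10 cells 14 of 16 were, with stricter limits 15 of 18 and with looser limits 13 of 22. Of the glucocorticoid-induced genes 10 of 15 were positive, and 8 of 12 without the 10 cells, where the median was 0.10. With stricter limits 11 of 14 were positive (median 0.05), and with looser limits 15 of 15 (median 0.27). Of all genes tested with looser limits 3795 of 7864 were positive. Ftl1, the ferritin light chain, had 4652, 5376 and 8364 CPM in p16-DTR and 4865, 4329 and 4509 in control. Nr3c1, the glucocorticoid receptor, lay above every control with 211, 251 and 224 CPM against 173, 184 and 155, and overlapped without the 10 cells. Fos had 997, 854 and 758 CPM against 727, 831 and 1100, with overlap.

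**Figure D5:**
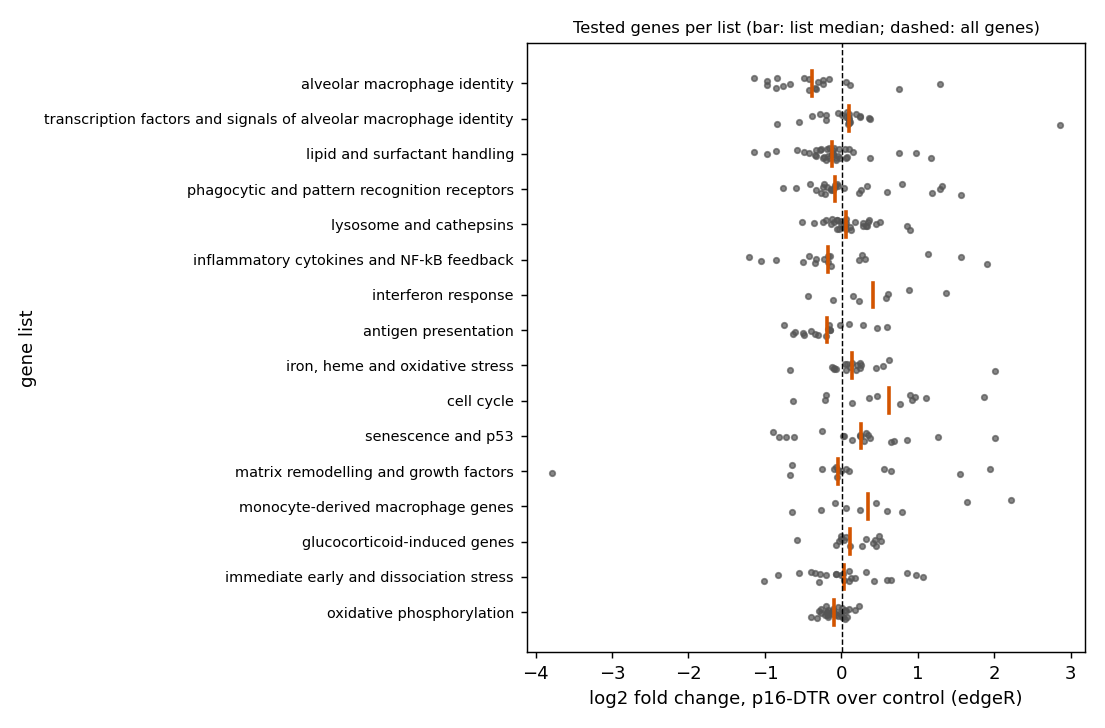
edgeR log2 fold change of each tested gene (p16-DTR over control, horizontal axis) in 16 gene lists, with an orange bar at the list's median and a dashed line at the median of all 6940 tested genes. Genes that chose the cells are left out; the identity list has a median of −0.39 and 16 of 20 genes below 0, and no gene of any list was called.

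Whether the group difference of alveolar macrophages differed from that of the other Ptprc-positive cells was tested as an interaction. edgeR called 0 of 17564 genes (0%), and 690 had an unadjusted p under 0.05. In alveolar macrophages alone 6940 genes passed the filter and 16089 had a UMI. Many of the 17564 were thus tested through the counts of the other cells, with few or no counts in alveolar macrophages. Thbs1 had the lowest adjusted p, 0.233, with a log2 difference of 3.36 between the fold changes, and Lpl had −1.57 (adjusted p = 0.357). Cdkn2a, too low for the test in alveolar macrophages alone, entered through the counts of the other cells and had −0.21 (adjusted p = 1). With the interstitial gate in place of the other Ptprc-positive cells, edgeR also called 0 genes.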

How the data were processed

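Raw UMI counts, as deposited by the authors, form 1 matrix of genes by barcodes per library. Cell Ranger 8.0.1 and the build mm10 are named per the submitters' processing notes; the annotation release and cell calling settings are not given in the sources used here. Of 31054 features, 31011 matched GENCODE M21 (GRCm38), which gave positions. The cells and gene lists were chosen with earlier results of these data known. Counts were summed per library over the alveolar macrophages (1 mouse per library). They were tested with edgeR 4.0.16 (R 4.3.3; quasi-likelihood, filterByExpr, TMM, design of group alone, adjusted p under 0.05), with the test checked on simulated data. Standard errors are approximate, from the F statistic. Alternatives were DESeq2 1.42.0, other scaling, no filter, the replicate block, other limits of the rule, cells with at most 30 UMIs of another lineage and each library left out. Shares used exact permutation tests. Cells were thinned to 5000 UMIs in 1 random draw with a fixed seed, so thinned shares also carry the noise of that draw. No doublet caller was run; the rule limits Csf3r and Cdh5. The interstitial gate held at least 3 C1q and at most 2 Chil3 UMIs. The monocyte gate held at least 2 Ly6c2 and 1 Ccr2 and no C1q UMI, and the neutrophil gate at least 2 Csf3r and 3 S100a8. Other steps ran in Python 3.11.15 (pandas 2.3.3, numpy 2.4.6; permutation tests in scipy 1.17.1, figures in matplotlib 3.10.9). Named genes were Cdkn2a, Cdkn1a, tdTomato, the markers and rule genes, called genes, with fewer than 10 calls the 6 genes of smallest p without overlap in each direction, and the 4 tested genes of highest mean CPM of each list; others named for lying outside the control range, Hbegf and genes compared with the interstitial gate were chosen after their values were seen. Replicates of a group differed beyond counting error (chi-square per degree of freedom 3.12 to 5.41). Some items are not reported here.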

Additional observations from a re-analysis of the deposited data

How the results depend on the processing

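The count of called genes, 0 in the edgeR test, was 2 with DESeq2, 186 without the filter on low counts (117 higher, 69 lower), 1 with stricter limits of the rule (Thbs1) and 0 to 49 when 1 library was left out. The 49 came without p16-DTR replicate 2 (46 higher), and the other 5 left-out libraries gave 0. With the replicate number as a block it was 0 (edgeR, lowest adjusted p 0.175). Same-numbered libraries correlated at 0.0569, −0.108 and −0.0677 in their deviations. From libraries of 7 to 23 cells this cannot show whether the numbers pair the mice, and the labels do not say. The interaction count, 0, ranged from 0 to 239 when 1 library was left out, with 239 without p16-DTR replicate 2, 27 without control replicate 2, 3 without control replicate 3 and 2 without control replicate 1. The group difference in the share of alveolar macrophages among Ptprc-positive barcodes, 0.0196 points, was −0.00296 with at most 5% mitochondrial and at least 2000 UMIs, −0.00992 with at most 30 UMIs of another lineage, an alternative chosen after seeing the data, and −0.0505 to 0.0551 with 1 library left out (−0.00747 without p16-DTR replicate 3, −0.0505 without control replicate 3). That in the share of alveolar macrophages with a UMI of Cdkn2a, 3.17 points, was 18.5 without thinning and 12.9 at 10000 UMIs. In the 1 random draw used, it was 0 to 4.76 with 1 library left out, 0 being without p16-DTR replicate 3. That in the share of alveolar macrophages with a UMI of Mki67 or Top2a, −6.30 points, ran from −13.8 to 0.451 with 1 library left out, and 0.451 was without control replicate 1. The cause of these changes was not tested. Of 1584 values of named genes under alternatives, 1426 kept direction and call, 131 moved and 27 became called. With 7 to 23 cells per library, the filter left low genes out of the edgeR test, and intervals cover counting error only.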
